A study of Mus musculus with 12 samples.

Results

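The heat shock chaperones described here are the 10 genes Hsp90aa1, Hsp90ab1, Hspa8, Hspa1a, Hspa1b, Hsph1, Hspd1, Hspe1, Hspb1 and Hsf1, taken by symbol from a count table of 55335 genes. Of these genes 9 encode chaperones and Hsf1 encodes a transcription factor that raises the inducible ones under stress. They were followed over a series of 4 days (0, 2, 4 and 6) in mouse embryonic stem (ES) cells, with 12 libraries of polyadenylated RNA, 3 for each day. The labels give every library the same cells and the same culture, which had serum replacement, the cytokine LIF, which keeps ES cells dividing as stem cells, gelatin and irradiated embryonic fibroblasts as feeders. No genotype, strain, age or treatment is named, and what set the clock at day 0 is not stated. Nothing tells whether replicates were separate cultures, so the spread behind each p-value is that of these libraries and may be technical. The title of the series names the chromatin remodelling complex NuRD and CTCF, a protein that shapes chromosome loops.

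Chaperones bind unfolded proteins and help them reach or keep their shape. The HSP70 machine takes up a client first, J-domain proteins bring the client and start ATP hydrolysis, exchange factors release it, and the HSP90 machine then matures many kinases, receptors and transcription factors. In mitochondria a barrel made of the Hspd1 and Hspe1 products folds imported proteins. Under stress HSF1 assembles into trimers, which bind heat shock elements, repeats of GAA and its reverse TTC, and raise the inducible members. Pluripotent cells are known for abundant chaperones without any stress.

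The 12 libraries held 6945900 to 13266962 counts, and the 10 members took 2.00 to 2.08% of them at day 0, 1.53 to 1.59% at day 2, 1.29 to 1.34% at day 4 and 1.05 to 1.10% at day 6. All 10 members had enough counts to be among the 16468 genes tested. The labelled cell type was checked with 10 ES cell markers, and none was at 0. Their summed level was 5558 to 5624 counts per 1e6 counts (CPM, scaled between libraries) at day 0, 1963 to 1993 at day 2, 1124 to 1143 at day 4 and 954 to 981 at day 6. Of the 10, 9 fell by day 2 (33.2% of all tested genes did), with Tdgf1, Nanog and Sox2 among them. The 15 markers of feeder fibroblasts summed to 85.5 to 91.6 CPM at day 0, 81.0 to 87.4 at day 2, 181 to 202 at day 4 and 411 to 443 at day 6. None of them was at 0 in all libraries. Of the 13 tested, 10 rose and 3 fell at day 6 against day 0 (39.4% and 37.5% of all tested genes did). Tagln and Col3a1 made up most of the day 6 sum, at 162 and 79.5 CPM, while Thy1 had 0.555 CPM at day 6 and 11.6 at day 0, and Col6a1 4.43 CPM at day 6 and 22.5 at day 0. Embryonic cells of other kinds also make these transcripts. Immediate early genes, which respond within minutes to handling, summed to 177 to 182 CPM at day 0, 129 to 135 at day 2, 165 to 175 at day 4 and 224 to 233 at day 6. Single genes weighed heavily on this sum: Ier2 had 82.9 CPM at day 0 and 58.6 at day 6, and Jun 9.52 and 71.2. Mitochondrially encoded genes took 1.38 to 2.54% of counts in single libraries. The ES and feeder sums moved with the day, and their part in the results was not tested. In such bulk RNA, fewer cells of a type and less RNA per cell cannot be told apart.

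The promoters are shown first because HSF1 acts through heat shock elements of inducible members. The members were taken by symbol, and a shared regulator was not tested. RefSeq (GRCm38.p6) windows from 250 bases before to 50 bases after the start were at hand for 6 of the 10 members, Hspa1a, Hspa1b, Hsph1, Hspd1, Hspe1 and Hspb1. Each of the 6 held at least 1 heat shock element of 2 units (GAANNTTC or TTCNNGAA), which is present in 17.0% of the 27025 genes with such a window. Of them 3, Hsph1, Hspd1 and Hspe1, held an element of 3 units (GAANNTTC followed by NNGAA, on either strand), against 0.662% of all genes. Every 3-unit match also contains 2-unit matches. The members were chosen as heat shock genes, so these shares describe them and test nothing. The 6 are not separate cases, because Hspa1a and Hspa1b, and Hspd1 and Hspe1, share the sequence of their elements. Of the Hspd1 windows, that of the outer start held no element. A CCAAT box was found in 4 of the 6 and TATAAA in none, against 41.1% and 15.7% of all genes. Both strands were searched. The inducible HSP70 gene Hspa1b (chr17:34959239-34959488, minus strand) and the small chaperone gene Hspb1 (chr5:135887669-135887918, plus strand) are printed from 250 bases before the start to the base next to it, 5′ to 3′, with the elements in capitals.
Hspa1b promoter: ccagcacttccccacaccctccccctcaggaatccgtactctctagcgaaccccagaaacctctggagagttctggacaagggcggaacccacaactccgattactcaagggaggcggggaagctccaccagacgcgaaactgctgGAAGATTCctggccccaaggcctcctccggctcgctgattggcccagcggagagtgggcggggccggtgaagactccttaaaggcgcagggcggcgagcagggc
Hspb1 promoter: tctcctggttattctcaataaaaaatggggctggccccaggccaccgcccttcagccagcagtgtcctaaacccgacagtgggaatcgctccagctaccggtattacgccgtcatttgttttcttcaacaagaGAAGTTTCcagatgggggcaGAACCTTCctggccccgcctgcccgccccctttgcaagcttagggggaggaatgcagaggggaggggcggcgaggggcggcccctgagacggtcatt

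The window of Hspa1a, on the same chromosome and strand, differs from that of Hspa1b at 4 of 300 bases, 3 of them upstream of the start, and has the same element at the same place, bases -104 to -97 from the start. Hspb1 has elements at bases -117 to -110 and -97 to -90 from its start. Hspe1 and Hspd1 lie head to head on chromosome 1 and share 1 element of 18 bases with 4 units in a row, printed here in capitals within a stretch of 30 bases (chr1:55088053-55088082) on each strand as each gene reads it. The element lies at bases -89 to -72 from the Hspe1 start and -144 to -127 from the inner of the 2 Hspd1 starts, inside an Hspd1 exon. In Hsph1 the 3-unit element of 13 bases, printed within the stretch chr5:149636280-149636308 (minus strand), lies at bases 16 to 28 from the inner start, downstream of it. A match of letters describes the sequence and does not show that HSF1 was bound there.
Hspe1 element, plus strand: ggtccgTTCTAGAACCTTCCGGAAggcccc
Hspd1 element, minus strand: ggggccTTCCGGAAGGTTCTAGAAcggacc
Hsph1 element, minus strand: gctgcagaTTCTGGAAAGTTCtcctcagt

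The chaperone transcripts were highest at day 0, and Hsf1 was highest at day 6. All 10 members differed among the 4 days by edgeR's quasi-likelihood F-test with Benjamini-Hochberg adjustment (89.2% of all tested genes did), with adjusted p from 6.72e-33 for Hsp90aa1 to 0.0126 for Hspa1a. The 10 members together summed to 21731 ± 508 CPM at day 0, 15176 ± 454 at day 2, 12855 ± 332 at day 4 and 10648 ± 226 at day 6 (SD, n = 3 each). The HSP90 pair made up 72.4%, 72.5%, 62.0% and 68.6% of that sum at the 4 days in turn, so the total mostly follows these abundant genes.

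**Figure D1:**
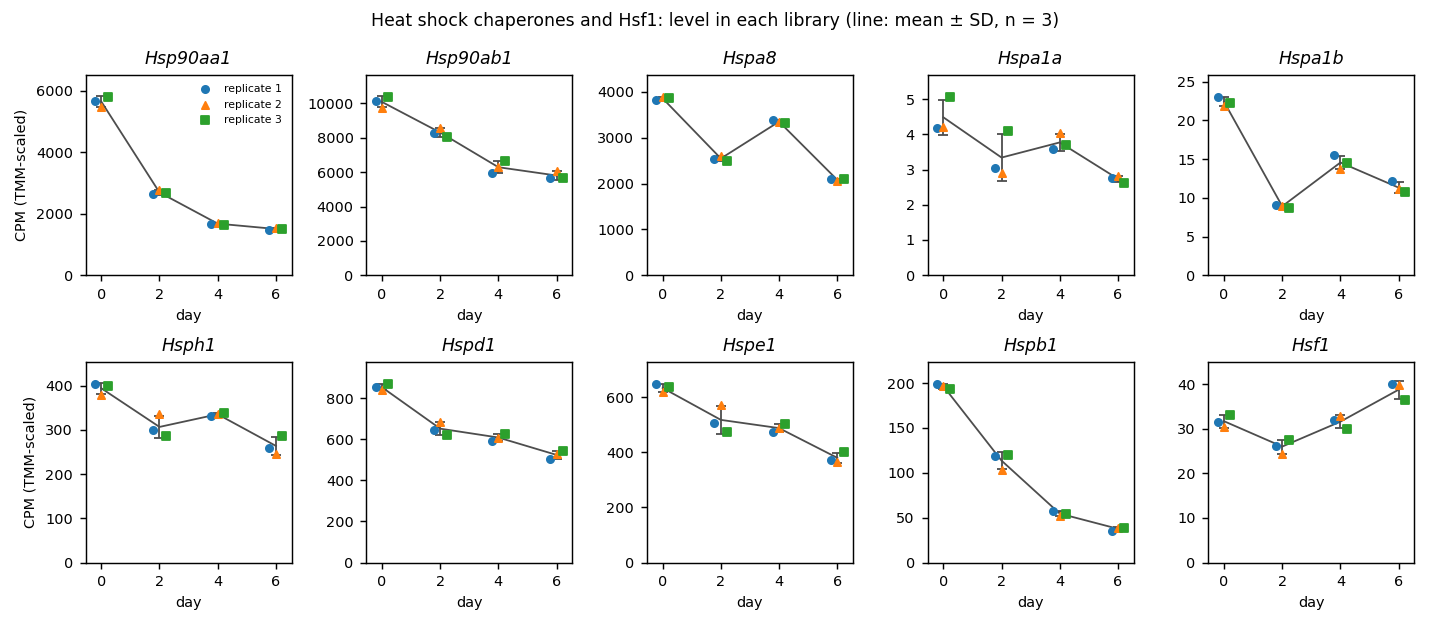
Level of each of the 10 members in CPM (linear axis from 0, its own scale in each panel) against day, with 1 symbol per replicate and a line through the day means with bars of 1 SD (n = 3). The 9 chaperone genes are highest at day 0, and Hsf1 is lowest at day 2 (26.0 CPM) and highest at day 6 (38.8 CPM).

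At day 2 all 10 members were lower than at day 0, where 33.2% of all tested genes fell, 34.9% rose and 68.1% changed. The libraries of both days did not overlap for any of the 10, which held for 70.7% of all tested genes. The median log2 fold change of the members was -0.41, against 0.02 for all tested genes. Scaling by library size alone, in place of the trimmed mean of M-values, shifts all genes up by 0.13 at day 2, 0.13 at day 4 and 0.10 at day 6 against day 0, and turns the day 2 calls over all genes from 5743 up and 5473 down into 7053 up and 4412 down. Under it no member changed direction, but 8 of the 10 passed at day 2, without Hspa1a (adjusted p = 0.164) and Hsf1 (adjusted p = 0.0748), and Hspa8 did not pass at day 4 (adjusted p = 0.0708), all from edgeR's quasi-likelihood test. At day 4, 8 members were lower than at day 0 (36.1% of all tested genes fell and 73.6% changed), and Hspa1a and Hsf1 did not pass. The members' median was -0.43, against 0.01, and the libraries of 9 did not overlap those of day 0 (75.2% of all tested genes). At day 6, 9 members fell and Hsf1 rose (37.5% of all tested genes fell, 39.4% rose and 76.9% changed), with a median of -0.77, against 0.02, and no member overlapped day 0 (78.3% of all tested genes). These comparisons share the day 0 libraries.

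Hsp90aa1 (ENSMUSG00000021270, chromosome 12, 110690605 to 110702728, GRCm38), which encodes the stress-inducible HSP90 alpha, fell most among the abundant members. It was at 5673, 5472 and 5802 CPM in the libraries of day 0, 2635, 2774 and 2668 at day 2, 1682, 1707 and 1646 at day 4, and 1456, 1542 and 1514 at day 6. Each day's libraries lay below those of the day before, with no overlap. Hsp90aa1 was 2.098-fold lower at day 2 than at day 0 (log2 -1.07 ± 0.04 SE, adjusted p = 3.64e-23), 3.37-fold lower at day 4 (log2 -1.75 ± 0.04, adjusted p = 3.26e-30) and 3.76-fold lower at day 6 (log2 -1.91 ± 0.04, adjusted p = 1.43e-31). Hsp90ab1 (ENSMUSG00000023944, chromosome 17, 45567775 to 45573271), which encodes the constitutive HSP90 beta, stayed the most abundant member, also per length. Its libraries had 10133, 9745 and 10385 CPM at day 0, 8300.3, 8557 and 8069 at day 2, 5947, 6277 and 6643 at day 4, and 5681, 6078 and 5654 at day 6. The days stood apart except days 6 and 4, where replicate 2 of day 6 lay above replicate 1 of day 4. It was 1.21-fold lower at day 2 than at day 0 (log2 -0.28 ± 0.05, adjusted p = 1.98e-06), 1.60-fold lower at day 4 and 1.74-fold lower at day 6 (log2 -0.80 ± 0.05, adjusted p = 3.31e-18).

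Within a library, the count of Hsp90aa1 relative to that of Hsp90ab1 does not depend on the scaling. This ratio was 0.560, 0.561 and 0.559 at day 0, 0.317, 0.324 and 0.331 at day 2, 0.283, 0.272 and 0.248 at day 4, and 0.256, 0.254 and 0.268 at day 6. Day 0 stood apart from day 2 and day 2 from the later days, while days 4 and 6 overlapped. The ratio differed among the 4 days (exact permutation test over 369600 assignments of libraries to days, two-sided, p = 0.00039, adjusted p = 0.000779 over 4 ratios), with a day 6 minus day 0 difference of -1.11 on the log2 scale. So the inducible HSP90 transcript fell more than its constitutive paralog.

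Hspa8 (ENSMUSG00000015656, chromosome 9, 40800984 to 40810087) encodes the constitutive HSP70 cognate, which also strips clathrin from vesicles. It fell, came back in part and fell again. Its libraries had 3819, 3893 and 3867 CPM at day 0, 2542, 2606 and 2496 at day 2, 3389, 3337 and 3330.0 at day 4, and 2100.0, 2050.3 and 2095 at day 6. No day overlapped another. Hspa8 was 1.51-fold lower at day 2 than at day 0 (log2 -0.60 ± 0.04, adjusted p = 7.42e-16), 1.32-fold higher at day 4 than at day 2 (log2 0.40 ± 0.04, adjusted p = 2.12e-10) and 1.61-fold lower at day 6 than at day 4 (log2 -0.69 ± 0.04, adjusted p = 1.06e-16). Day 4 was 1.15-fold below day 0 (log2 -0.20 ± 0.04, adjusted p = 3.63e-05), a call lost with scaling by library size alone (log2 -0.08, adjusted p = 0.0708, the highest of its 18 alternatives, whose lowest was 9.01e-09).

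The stress-inducible HSP70 genes had the lowest levels per length of the 9 chaperone genes at every day. Hspa1b (ENSMUSG00000090877, chromosome 17, 34956436 to 34959238) had 23.1, 21.9 and 22.3 CPM at day 0, 9.09, 9.003 and 8.64 at day 2, 15.5, 13.7 and 14.5 at day 4, and 12.1, 11.1 and 10.7 at day 6. No day overlapped another, and day 2 was the lowest. Hspa1b was 2.51-fold lower at day 2 than at day 0 (log2 -1.33 ± 0.10, adjusted p = 7.54e-15), 1.63-fold higher at day 4 than at day 2 (log2 0.71 ± 0.11, adjusted p = 5.31e-07) and 1.97-fold lower at day 6 than at day 0 (log2 -0.98 ± 0.10, adjusted p = 1.37e-11). Hspa1a (ENSMUSG00000091971, chromosome 17, 34969190 to 34972156) had 4.18, 4.20 and 5.06 CPM at day 0, 3.03, 2.89 and 4.09 at day 2, 3.58, 4.03 and 3.69 at day 4, and 2.77, 2.81 and 2.63 at day 6, from 25 to 45 reads in a library. Its day 0 libraries lay above those of each later day, by a small margin from replicate 3 of day 2. The fall at day 6 passed (1.63-fold, log2 -0.71 ± 0.20, adjusted p = 0.00217). That at day 2 passed narrowly (log2 -0.43 ± 0.19, adjusted p = 0.0438) and was lost in 10 of 17 alternatives, whose adjusted p ran from 0.0141 to 0.171. DESeq2 gave 0.124. Without replicate 1, 2 or 3 of day 0 it was 0.0511, 0.0525 and 0.171, and without replicate 1 or 2 of day 2 it was 0.134 and 0.153. At day 4 the value was -0.24 ± 0.20 against day 0 (adjusted p = 0.267), with a 95% interval of -0.63 to 0.14.

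Both genes are near copies of each other, and 66.3% of the 50-base windows of Hspa1a and 62.3% of those of Hspa1b also occur in another gene. How reads with several positions were counted is not given in the sources used here, so the split between the 2 genes is uncertain. With the 2 rows summed, the log2 value was -1.14 at day 2, -0.55 at day 4 and -0.93 at day 6 against day 0, and 0.58 at day 4 against day 2, with adjusted p from 2.58e-14 to 1.74e-06. The summed count of Hspa1a and Hspa1b relative to that of Hspa8 was 0.00713, 0.00671 and 0.00707 at day 0, 0.00477, 0.00457 and 0.00510 at day 2, 0.00563, 0.00533 and 0.00546 at day 4, and 0.00709, 0.00680 and 0.00637 at day 6. Days 2 and 4 lay below days 0 and 6 (exact permutation test, two-sided, p = 0.00039, adjusted p = 0.000779). Day 2 had the lowest ratio, with no overlap with day 4.

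Hsph1 (ENSMUSG00000029657, chromosome 5, 149614287 to 149636376) encodes an HSP110 chaperone that exchanges nucleotide on HSP70. It had 404, 380 and 400 CPM at day 0, 299.9, 335 and 285 at day 2, 332, 337 and 337 at day 4, and 259.9, 245 and 287 at day 6. Day 0 lay above all later days and day 4 above day 6 without overlap, while day 2 spread across day 4 and touched day 6. Hsph1 was 1.29-fold lower at day 2 (log2 -0.36 ± 0.05, adjusted p = 3.05e-07) and 1.49-fold lower at day 6 (log2 -0.58 ± 0.05, adjusted p = 1.12e-11) than at day 0. Between days 4 and 2 it passed at a log2 value of 0.13 ± 0.05 (adjusted p = 0.0424), but lost the call in 8 of 18 alternatives, over which adjusted p ran from 0.000745 to 0.242. DESeq2 gave 0.0607, and leaving out replicate 1 or 3 of day 2 gave 0.141 and 0.242, and replicate 1, 2 or 3 of day 4 0.0701, 0.0999 and 0.0947. Relative to its partner Hspa8, Hsph1 had a mean count ratio of 0.102 at day 0, 0.120 at day 2, 0.100 at day 4 and 0.127 at day 6 (exact permutation test, two-sided, p = 0.0026, adjusted p = 0.00346) and was higher at days 2 and 6 than at days 0 and 4.

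**Figure D2:**
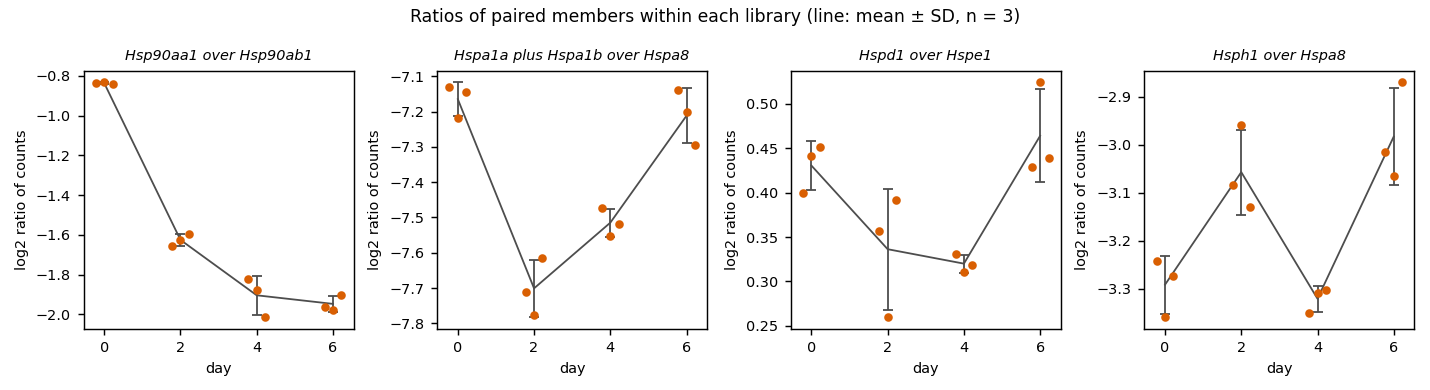
Log2 ratio of counts within each library for 4 pairs of members against day, with 1 point per library, and a line through the means with bars of 1 SD (n = 3). On the linear scale the ratio of Hsp90aa1 to Hsp90ab1 averages 0.259 at day 6 and 0.560 at day 0, and the ratio of inducible HSP70 to Hspa8 averages 0.00481 at day 2 and 0.00697 at day 0.

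Hspd1 (ENSMUSG00000025980, chromosome 1, 55077835 to 55088243) and Hspe1 (ENSMUSG00000073676, chromosome 1, 55088132 to 55091307), the ring and the lid of the mitochondrial chaperonin, moved nearly in parallel. Hspd1 had 853, 838 and 868 CPM at day 0, 647, 685 and 622 at day 2, 593, 605 and 626 at day 4, and 502, 526 and 543 at day 6. Hspe1 had 647, 617 and 635 CPM at day 0, 505, 572 and 474 at day 2, 472, 488 and 502 at day 4, and 373, 366 and 401 at day 6. In both genes day 0 lay above and day 6 below all other libraries, and days 2 and 4 overlapped. At day 6 against day 0, Hspd1 was 1.63-fold lower (log2 -0.70 ± 0.04, adjusted p = 2.67e-17) and Hspe1 1.67-fold lower (log2 -0.74 ± 0.05, adjusted p = 5.03e-15). Day 4 against day 2 did not pass, at -0.10 ± 0.04 for Hspd1 (adjusted p = 0.0598) and -0.09 ± 0.05 for Hspe1 (adjusted p = 0.162). It passed without replicate 3 of day 2 for both (adjusted p = 0.0176 and 0.0158), and for Hspd1 without replicate 3 of day 4 (adjusted p = 0.0431) or with scaling by library size alone (adjusted p = 0.0321), over ranges of 0.0176 to 0.303 and 0.0158 to 0.956 in 18 alternatives each. The mean ratio of Hspd1 to Hspe1 counts was 1.35, 1.26, 1.25 and 1.38 at days 0, 2, 4 and 6 (exact permutation test, two-sided, p = 0.011, adjusted p = 0.011), a narrow range. Their exons overlap by 112 bases on opposite strands, and whether counting used strand is not given in the sources used here.

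The small chaperone gene Hspb1 (ENSMUSG00000004951, chromosome 5, 135887919 to 135889563), whose product holds unfolded proteins without ATP and binds the actin skeleton, had the largest fall of the 10 at day 6. At day 4 its order with Hsp90aa1 turned with the handling of near copies: the log2 fold changes were -1.85 for Hspb1 and -1.75 for Hsp90aa1, but -1.74 for Hspb1 and -1.75 for Hsp90aa1 with near-copy rows added. It was at 199, 197 and 194 CPM at day 0, 118, 103 and 119.7 at day 2, 57.7, 51.7 and 54.2 at day 4, and 35.1, 39.0 and 38.7 at day 6. The days stood apart in every step. Hspb1 was 1.73-fold lower at day 2 (log2 -0.79 ± 0.05, adjusted p = 9.71e-17), 3.60-fold lower at day 4 (log2 -1.85 ± 0.06, adjusted p = 3.41e-27) and 5.25-fold lower at day 6 (log2 -2.39 ± 0.06, adjusted p = 1.17e-30) than at day 0.

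Hsf1 (ENSMUSG00000022556, chromosome 15, 76477422 to 76501913) went the other way late in the series. Its libraries had 31.6, 30.3 and 33.2 CPM at day 0, 26.1, 24.4 and 27.6 at day 2, 31.9, 33.0 and 29.95 at day 4, and 40.03, 39.9 and 36.5 at day 6. Day 2 lay below and day 6 above every other library, and days 0 and 4 overlapped. Hsf1 was 1.22-fold lower at day 2 than at day 0 (log2 -0.29 ± 0.08, adjusted p = 0.00103), a call lost with library size alone as the scaling (log2 -0.16, adjusted p = 0.0748, the highest of 18 alternatives, whose lowest was 0.000769). At day 6 it was 1.23-fold higher than at day 0 (log2 0.29 ± 0.07, adjusted p = 0.000443) and 1.22-fold higher than at day 4 (log2 0.29 ± 0.07, adjusted p = 0.000954). Day 4 differed from day 0 by 0.00 ± 0.08 (adjusted p = 0.985), with a 95% interval of -0.15 to 0.15. The transcript level does not report the activity of HSF1, which is set mainly at the protein.

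The steps between successive days split the members. At day 4 against day 2, 4 rose (25.3% of all tested genes did), namely Hspa8, Hspa1b, Hsph1 and Hsf1, 3 fell (24.8%), namely Hsp90aa1, Hsp90ab1 and Hspb1, and Hspa1a, Hspd1 and Hspe1 did not pass; 50.1% of all tested genes changed. The members' median was 0.02, against 0.00 for all tested genes, and 6 members had libraries that did not overlap (55.7% of all tested genes). Hspa8 and Hspa1b thus moved opposite to both HSP90 genes in this step. At day 6 against day 4, 8 members fell (19.3% of all tested genes did), Hsf1 rose (23.6%), and Hspa1a did not pass at -0.46 ± 0.21 (adjusted p = 0.0678); 42.9% of all tested genes changed. The median was -0.35, against 0.02, and 9 members did not overlap (50.7% of all tested genes). Hspa8 had the largest fall of this step, and Hspb1 came next at 1.46-fold. Hsp90aa1 fell 1.12-fold (log2 -0.16 ± 0.04, adjusted p = 0.00292). The fall of Hsp90ab1 (log2 -0.12 ± 0.05, adjusted p = 0.0441) was lost in 6 of 18 alternatives, with adjusted p from 0.0075 to 0.261 over all of them. Without replicate 2 or 3 of day 4 it was 0.0811 and 0.261, and without replicate 1 or 3 of day 6 it was 0.148 and 0.173.

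**Figure D3:**
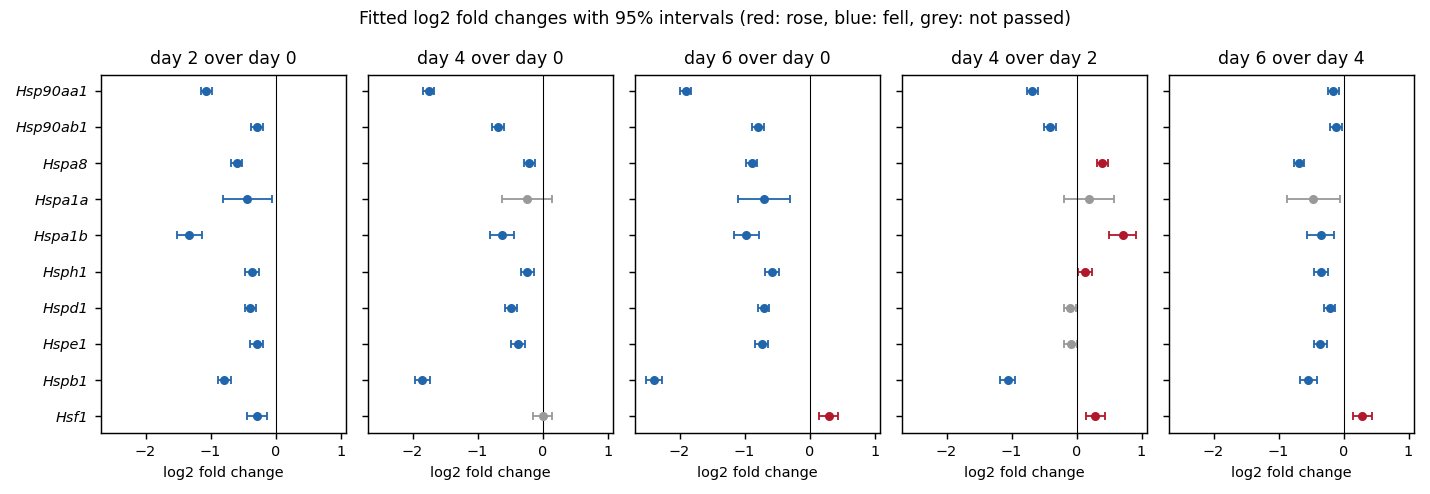
Fitted log2 fold change of each member in the 5 comparisons, later day over earlier day, with 95% intervals that are not adjusted for multiple tests. Red marks members that rose, blue those that fell and grey those that did not pass. Hspb1 (-2.39) and Hsp90aa1 (-1.91) lie farthest left at day 6 over day 0, and Hspa8, Hspa1b, Hsph1 and Hsf1 lie to the right of 0 at day 4 over day 2.

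Levels of different genes were compared per length, as CPM per 1000 bases of exon. At day 0 Hsp90ab1 led at 3364 ± 107, ahead of Hsp90aa1 at 1437 ± 42.3, Hspa8 at 897 ± 8.77, Hspe1 at 429 ± 10.2, Hspd1 at 323 ± 5.78, Hspb1 at 191 ± 2.55, Hsph1 at 54.3 ± 1.78, Hspa1b at 7.998 ± 0.206, Hsf1 at 4.47 ± 0.200 and Hspa1a at 1.51 ± 0.170 (SD, n = 3). All neighbours in that order were farther apart than their spread between libraries. That spread does not cover the choice of length, which merged all annotated exons of a gene (7099 bases for Hsf1, 2803 for Hspa1b). Nor does it cover reads from windows shared with other genes, so the order of close neighbours is uncertain. The order then changed in a few places. Hspa8 overtook Hsp90aa1 at day 4, at 779 ± 7.50 and 427 ± 7.72, and stayed above it at day 6, at 484 ± 6.38 and 383 ± 11.1. At day 6 Hspb1 at 36.5 ± 2.103 and Hsph1 at 36.3 ± 2.90 did not differ beyond their spread. Hsf1 was above Hspa1b at day 2, at 3.67 ± 0.220 and 3.18 ± 0.0859, and at day 6, at 5.46 ± 0.283 and 4.04 ± 0.257.

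Several members have processed copies elsewhere in the genome that were counted as rows of their own. Of the 50-base windows, 50.1% of those of Hspb1, 47.5% of Hsp90aa1, 42.1% of Hspd1, 39.4% of Hspa8 and 3.44% of Hsp90ab1 also occur in another gene, and none of those of Hsph1 and Hsf1 does. The row of Gm15459 had a count of its own equal to 25.3 to 27.9% of that of Hspa8 at the 4 days. It moved as Hspa8 did, at 1056 ± 12.1, 643 ± 24.6, 929.9 ± 33.5 and 569 ± 15.995 CPM. The row of Hsp25-ps1 had a count equal to 32.1% of that of Hspb1 at day 6 and 23.8% at day 0. It was 3.91-fold lower at day 6 than at day 0 (edgeR's quasi-likelihood test, adjusted p = 1.17e-22). The row of Gm12346 had a count equal to 3.72 to 4.54% of that of Hsp90aa1. Reads from windows that a member shares with its copy cannot be told apart by sequence, and how they were counted is not given. Reads from the other windows can be. With the copies added to the members, a choice made after the data were seen, the day 6 over day 0 values were -2.30 for Hspb1, -1.90 for Hsp90aa1 and -0.89 for Hspa8.

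**Figure D4:**
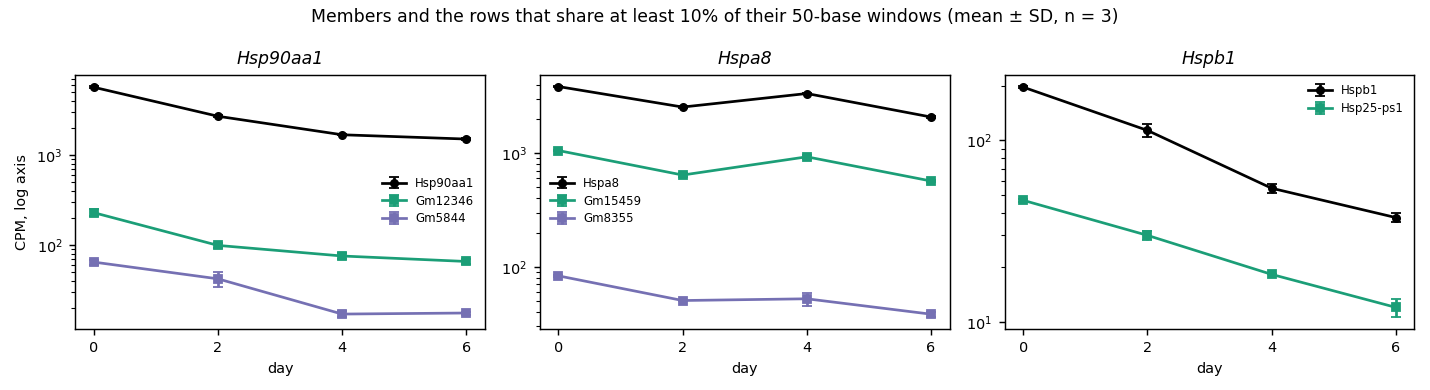
Mean CPM ± SD (n = 3, logarithmic axis) against day of 3 members (black) and of 5 of the rows that hold at least 10% of their 50-base windows (colours). The copies run below their member and mostly in parallel with it, as Gm15459 does at 569 CPM at day 6 and 1056 CPM at day 0 beside Hspa8.

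The other genes of the chaperone network were counted beside all tested genes, of which 34.9%, 37.5% and 39.4% rose and 33.2%, 36.1% and 37.5% fell at days 2, 4 and 6 against day 0. Of 20 co-chaperones of HSP90, 13 fell and 2 rose at day 2, 14 fell and 3 rose at day 4, and 15 fell and 4 rose at day 6 against day 0 (medians -0.34, -0.40 and -0.49 on the log2 scale, against medians of 0.02, 0.01 and 0.02 over all tested genes). Fkbp5, an immunophilin of steroid receptor complexes, had 64.4 ± 4.98 CPM at day 6 and 295 ± 10.2 CPM at day 0 (4.58-fold lower, adjusted p = 1.31e-31). Stip1, the adaptor that passes clients from HSP70 to HSP90, was 1.74-fold lower at day 6, and the cyclophilin gene Ppid 1.67-fold lower. Of 14 subunits of the cytosolic chaperonin CCT and of prefoldin, which fold actin and tubulin, 10 fell and 2 rose at day 2, and 13 fell and 1 rose at days 4 and 6 (median -0.46 at day 6). Pfdn1 was 2.57-fold lower at day 6 and Pfdn4 1.83-fold lower, and the exception was Pfdn5, at 120 ± 5.22 CPM at day 6 and 62.8 ± 5.11 CPM at day 0. Of 14 mitochondrial chaperones and proteases, 9, 10 and 10 fell and 3, 3 and 1 rose at days 2, 4 and 6 against day 0. Among them Hspa9, the mitochondrial HSP70, was 1.70-fold lower at day 6, Trap1, the mitochondrial HSP90, 1.93-fold lower, and the protease gene Lonp1 1.61-fold lower.

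Of 40 tested genes of J-domain proteins, the HSP40 partners that pick clients for HSP70, 24 rose and 8 fell at day 2, 23 rose and 12 fell at day 4, and 19 rose and 16 fell at day 6 against day 0 (medians 0.24, 0.23 and 0.24 on the log2 scale). Among all tested genes, 34.9%, 37.5% and 39.4% rose and 33.2%, 36.1% and 37.5% fell. Dnajc3 and Dnajc10, both of the endoplasmic reticulum, were 2.60-fold and 1.70-fold higher at day 6, and Dnajc6, which encodes auxilin, a neuronal partner of Hspa8 in clathrin uncoating, was 12.5-fold lower, at 2.39 ± 0.473 CPM against 30.9 ± 1.20 CPM at day 0. Of the 10 exchange and quality control factors of HSP70, 4 rose and 3 fell at day 6. Bag5 and Bag2 were 3.57-fold and 3.60-fold higher, and St13, which slows HSP70 cycling, 1.50-fold lower. Of 12 other members of the HSP90 and HSP70 families, 2 rose and 6 fell at day 6, with Hspa13, a microsomal HSP70, 2.34-fold higher. Among the other small heat shock proteins, of which 4 of 8 were tested, 2 rose and 2 fell at day 6. Hspb8 was 3.93-fold lower and Hspb2 1.52-fold lower, while the lens crystallin gene Cryab was 2.91-fold higher.

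Of 19 other heat-inducible targets of HSF1 outside the members, 8 rose and 9 fell at day 2, 9 rose and 7 fell at day 4, and 8 rose and 9 fell at day 6 against day 0 (medians -0.09, 0.19 and -0.15), against all-gene shares of 34.9%, 37.5% and 39.4% that rose and 33.2%, 36.1% and 37.5% that fell. Serpinh1, the collagen chaperone HSP47, had 1551 ± 71.9 CPM at day 6 and 114 ± 4.25 CPM at day 0 (13.6-fold higher, adjusted p = 4.93e-39). The collagen genes Col3a1 and Col1a2 were 127-fold and 26.2-fold higher at day 6, from 0.624 and 1.88 CPM at day 0. The other collagen genes of the feeder markers differed. Col1a1 had 36.8 CPM at day 6 and 5.89 at day 0, and Col5a1 19.4 and 14.8. Col6a1 went the other way, at 4.43 CPM at day 6 and 22.5 at day 0. Hspbap1, which encodes a binding partner of the Hspb1 product, was 3.23-fold lower. Some genes stand on several lists, such as Stip1, Hspb8 and Cryab here. In the HSF family and its regulators, of which 7 were tested, 2 rose and 2 fell at day 6; Hsf2bp was 1.85-fold lower, Hsbp1, an HSF1-binding inhibitor, was 1.33-fold higher at day 4, and Hsf4 was 3.49-fold lower at day 4, at 0.720 ± 0.340 CPM against 2.53 ± 0.376 CPM at day 0. At day 6 neither passed against day 0 in edgeR's quasi-likelihood test. The log2 fold change was 0.07 for Hsbp1 (adjusted p = 0.243) and -0.34 for Hsf4 (adjusted p = 0.277). In the same test Hsbp1 passed with library-size scaling (adjusted p = 0.00195) and without replicate 2 of day 6 (adjusted p = 0.0411). Of 11 tested immediate early genes, 2 rose and 9 fell at day 2, 3 rose and 7 fell at day 4, and 5 rose and 3 fell at day 6. Jun was 2.72-fold higher at day 2 and 7.49-fold higher at day 6, Egr1 was 2.81-fold higher at day 6, and Junb was 3.94-fold lower at day 2. The lists were written with earlier results of these data known, and their counts are given as descriptions with no test of a list.

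**Figure D5:**
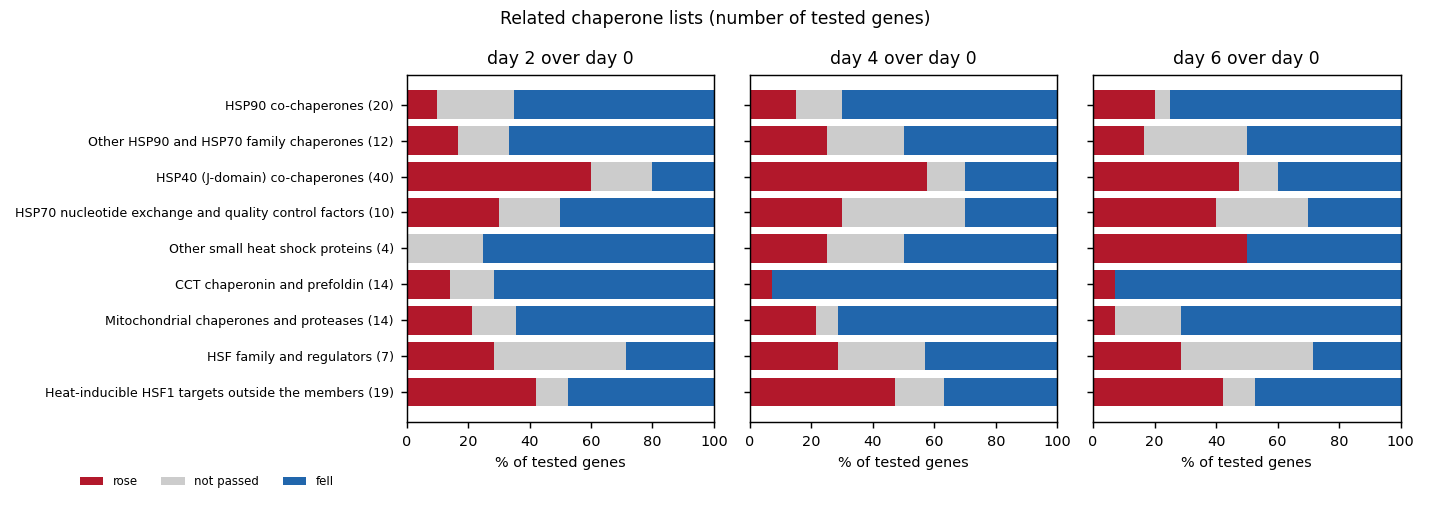
Share of tested genes of 9 related lists that rose (red), did not pass (grey) or fell (blue), in % on the horizontal axis, for days 2, 4 and 6 over day 0, with the number of tested genes in brackets. The CCT and prefoldin list is blue for 13 of 14 genes at days 4 and 6, and the HSP40 list is red for 24 of 40 genes at day 2.

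Likeness among the members across the 12 libraries was described by Pearson's r of log2 CPM. Hsp90aa1, Hsp90ab1, Hspd1 and Hspb1 ran together (r of 0.94 to 0.98), and Hspa8 ran with Hsph1 (0.94) and Hspa1a (0.86). Hspd1 also ran with Hspe1 (0.96), Hsph1 (0.90) and Hspa8 (0.82), and Hspe1 with Hsph1 (0.94). For Hsf1, r was 0.23 with Hspa1b and negative with the other members, from -0.61 with Hspe1 to -0.22 with Hspa1a. These libraries share 4 days, so r mostly reflects the means of the days. Outside the members, the genes most like Hsp90aa1 among those with at least 20 CPM on average were Parp1 (r = 0.999), Tfcp2l1 (0.998) and Mtcl1 (0.998). Parp1, a DNA repair enzyme gene, had 281 CPM at day 6 and 738 at day 0, and Tfcp2l1, a transcription factor gene of naive pluripotency, had 12.9 CPM at day 6 and 114 at day 0. Hspd1 was most like Pno1 (0.992), Ubtf (0.991) and Sox2 (0.988), the first 2 of which act in making ribosomes. Hspb1 was most like Fam43a, Pecam1 and Rbpms2 (0.996 each). Hspa1b was most like mt-Nd5 (0.989), Gar1 (0.974) and Fabp3 (0.974), and Hsf1 like Lamb2 (0.960), Rap1gap (0.959) and Fam53a (0.957).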

How the data were processed

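Counts per gene in 12 libraries of polyadenylated RNA were used as the authors deposited them, and all were whole numbers. Per the labels' protocols, RNA was extracted with a MiniBEST kit and libraries were made with a SMARTER kit. The submitters' processing notes name the genome build mm10, HISAT2 2.1.0, featureCounts 2.0.1, DESeq2 and FastQC 0.11.7. Strandedness, multi-mapping and annotation are not given in the sources used here. GENCODE release M21 (GRCm38), with 55154 of the IDs, gave coordinates, exon lengths and shared windows.

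The members and lists were chosen with earlier results of these data known. In edgeR 4.0.16 (R 4.3.3), genes passing filterByExpr were kept, libraries were scaled by TMM, and 1 quasi-likelihood model with day as a factor was fitted to all libraries with robust spread (common coefficient of variation 0.0415). P-values were adjusted by Benjamini-Hochberg over 16468 genes, separately for each comparison, and called under 0.05. SE came from the test statistic, and intervals are 95%. Ratios were tested by exact permutation of libraries over days. The chi-square per degree of freedom between libraries of a day ran from 1.51 to 3.80, so no pair agreed within sampling noise. Of each list, up to 3 tested genes with the smallest F-test p were named, and all members whatever their values. The fit was also run on counts simulated from its own fitted spreads and the day 0 levels, with few genes changed. That run cannot show how the scaling does where most genes change. Alternatives were median-ratio and library-size scaling, 2 other filters, DESeq2 1.42.0, a fit to 6 libraries, a replicate block, summed near copies, adjusted p under 0.01, and each library left out. A result on an item withheld for evaluation is not reported here.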

Additional observations from a re-analysis of the deposited data

How the results depend on the processing

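Counts of called members and of called genes of the related lists stayed within 1.5 times. The 4 ratios kept their sign and their side of the threshold. Both statements together cover 286 alternative values. For the ratios, the exact permutation p of an alternative was held against 0.05 unadjusted, while the main p was adjusted over the 4 ratios. The day 6 over day 0 values of 2 ratios moved by more than 1.5 times when 1 library was left out: the Ratio of Hspd1 over Hspe1 was 0.0035 to 0.051 on the log2 scale, the lowest without replicate 2 of day 6, and the Ratio of Hspa1a plus Hspa1b over Hspa8 -0.083 to -0.0055, without replicates 1 and 3 of day 6 in that order. Of 895 alternative values for member fold changes, 861 kept direction and call, 26 lost and 5 gained a call, and 3 changed sign. All 3 belong to Hsf1 at day 4 over day 0, which was near 0 and not called: -0.0031 without replicate 1 of day 0, -0.030 without replicate 2 of day 0 and -0.025 without replicate 2 of day 4, in a range of -0.030 to 0.037 over the libraries left out. Of 1781 values for genes of the related lists, 1768 kept both, 11 lost and 2 gained a call. Same-numbered libraries of different days did not deviate together (correlations of -0.038 to 0.034 over 18 pairs). These values over all tested genes showed no pairing by number, but they cannot exclude one. With the replicate block, 10, 8, 10, 6 and 8 members were called in the 5 comparisons, without Hsph1 at day 4 over day 2 (adjusted p = 0.0617) and Hsp90ab1 at day 6 over day 4 (adjusted p = 0.0538). Of all 16468 tested genes, 11195, 12075, 12630, 8180 and 7004 were called with the block, in the same order. The low count of Hspa1a, 25 to 45 reads a library, limits what can be said of it.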
